A study of Bos taurus with 6 samples.

Results

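SCARA5, a class A scavenger receptor that binds ferritin at the cell surface, and 9 other genes of cellular iron handling were followed in bovine fat precursor cells given extra bta-miR-484. The 10 genes were SCARA5, TFRC, STEAP3, SLC11A2, FTH1, FTL, NCOA4, SLC40A1, IREB2 and ACO1, and all 10 were found by symbol among the 23475 genes of the expression table. SCARA5 was chosen from its own values in these libraries, namely its higher level with the agomir. The other 9 were taken for their known functions in iron uptake, storage, export and sensing. Earlier results of these data were known when they were chosen. The SCARA5 values are given as a description without a test, because the gene was chosen from them.

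Primary cells had been isolated from the subcutaneous fat of 3 premature calves and were cultured in high-glucose medium with fetal bovine serum. In 3 libraries the cells had been transfected with bta-miR-484 agomir, a chemically modified double-stranded RNA that supplies the mature microRNA. In the other 3 libraries they had received agomir NC, the negative control of that agent. Both groups were collected 48 h after transfection for total RNA sequencing. No wild-type or mock-transfected library was analysed here, so every difference is relative to cells that had also been transfected. It is not stated whether the 3 libraries of a group came from separate calves or cultures, and p-values therefore measure only the spread between these samples, which may be technical.

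The values were FPKM, that is fragments per kilobase of transcript scaled to the fragments mapped in the library, so levels could be compared between genes per length. Summed FPKM per library ranged from 365977 to 379361. Read depth was unknown, because low values did not fall on steps that would reveal whole reads, and no counting interval could be given. Fold changes are differences of log2(FPKM + 0.5), agomir minus agomir NC, which understates the change of genes with low levels. A gene was tested with limma when its mean was at least 0.5 FPKM over the 6 libraries, which left 12422 genes, and all 10 iron genes passed.

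Cells take up iron bound to transferrin through the transferrin receptor, or as ferritin through receptors such as SCARA5. The metal is reduced and carried out of the endosome, and what is not used is stored in the ferritin shell or exported by ferroportin. The iron regulatory proteins sense the labile pool and act mainly on translation and mRNA stability, so mRNA levels do not by themselves give the amount of protein or of iron.

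The libraries are labelled adipocyte, and the mature fat cell markers ADIPOQ and LEP were close to 0. ADIPOQ lay between 0.0763 and 0.197 FPKM, and LEP was listed at 0 in 4 of the 6 libraries. Others were higher, with PLIN1 averaging 1.23 FPKM, CIDEA 1.27 FPKM and GPAM 2.11 FPKM over the 6 libraries. Of 10 mature adipocyte markers 6 passed the filter, and the summed level of the list was 7.43, 8.62 and 8.34 FPKM with the agomir and 9.43, 8.37 and 8.32 FPKM with agomir NC. Its most abundant gene was FABP4, a fatty acid carrier, which averaged 1.90 ± 0.400 FPKM with the agomir and 2.89 ± 0.679 FPKM with agomir NC (SD, n = 3 each). Mesenchymal genes were high, with COL3A1 averaging 7623 FPKM, COL1A1 5979 FPKM and COL1A2 5721 FPKM over the 6 libraries. Of 17 preadipocyte and mesenchymal markers 14 passed the filter, among them PDGFRA at 162 to 172 FPKM, DPP4 at 4.72 to 5.87 FPKM and PPARG at 2.96 to 3.99 FPKM. The other 3 did not pass, with DLK1 listed at 0 in every library and CD34 and PI16 averaging under 0.5 FPKM. The study's methods use both words, preadipocytes for the cells isolated from the fat and adipocytes for those collected for sequencing.

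For the uptake of ferritin, SCARA5 measured 12.5, 12.5 and 13.2 FPKM in agomir replicates 1 to 3 and 9.05, 8.40 and 8.81 FPKM in agomir NC replicates 1 to 3. All 3 agomir libraries stood above all 3 control libraries, which is the pattern for which the gene was chosen. Agomir libraries averaged 12.7 ± 0.434 FPKM and controls 8.76 ± 0.329 FPKM (SD, n = 3 each). Their ratio was 1.46, and the log2 fold change was 0.52. In bulk RNA of this kind, a larger number of cells that express a gene and more RNA per cell cannot be told apart. Groups that did not overlap were found for 2141 of the 12422 genes tested (17.2%), and nothing is read from the SCARA5 pattern. The size of its difference is also what the gene was chosen for and may be overstated for that reason. In both groups together the gene ranged from 8.40 to 13.2 FPKM, a level between those of TFRC and SLC40A1.

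The other class A scavenger receptors did not share this pattern. MSR1 and MARCO, the macrophage receptors of the class, were listed at 0 in all 6 libraries. COLEC12, a collectin-type scavenger receptor, measured 3.62, 3.85 and 3.41 FPKM with the agomir and 4.39, 5.06 and 5.06 FPKM with agomir NC. It was thus lower in each agomir library than in each control, with a log2 fold change of -0.37 (limma adjusted p = 0.261 by Benjamini-Hochberg over all genes tested). SCARA3 averaged 5.60 ± 0.744 FPKM with the agomir and 6.33 ± 0.624 FPKM with agomir NC, groups that overlapped, and its 95% interval ran from -0.40 to 0.07 on the log2 scale. Of the 2 receptors of the class tested beside SCARA5, 1 was lower and 0 were higher at an unadjusted p of 0.05, beside 4.31% of all genes lower and 6.63% higher, and groups did not overlap for 1, beside 17.2%.

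**Figure D1:**
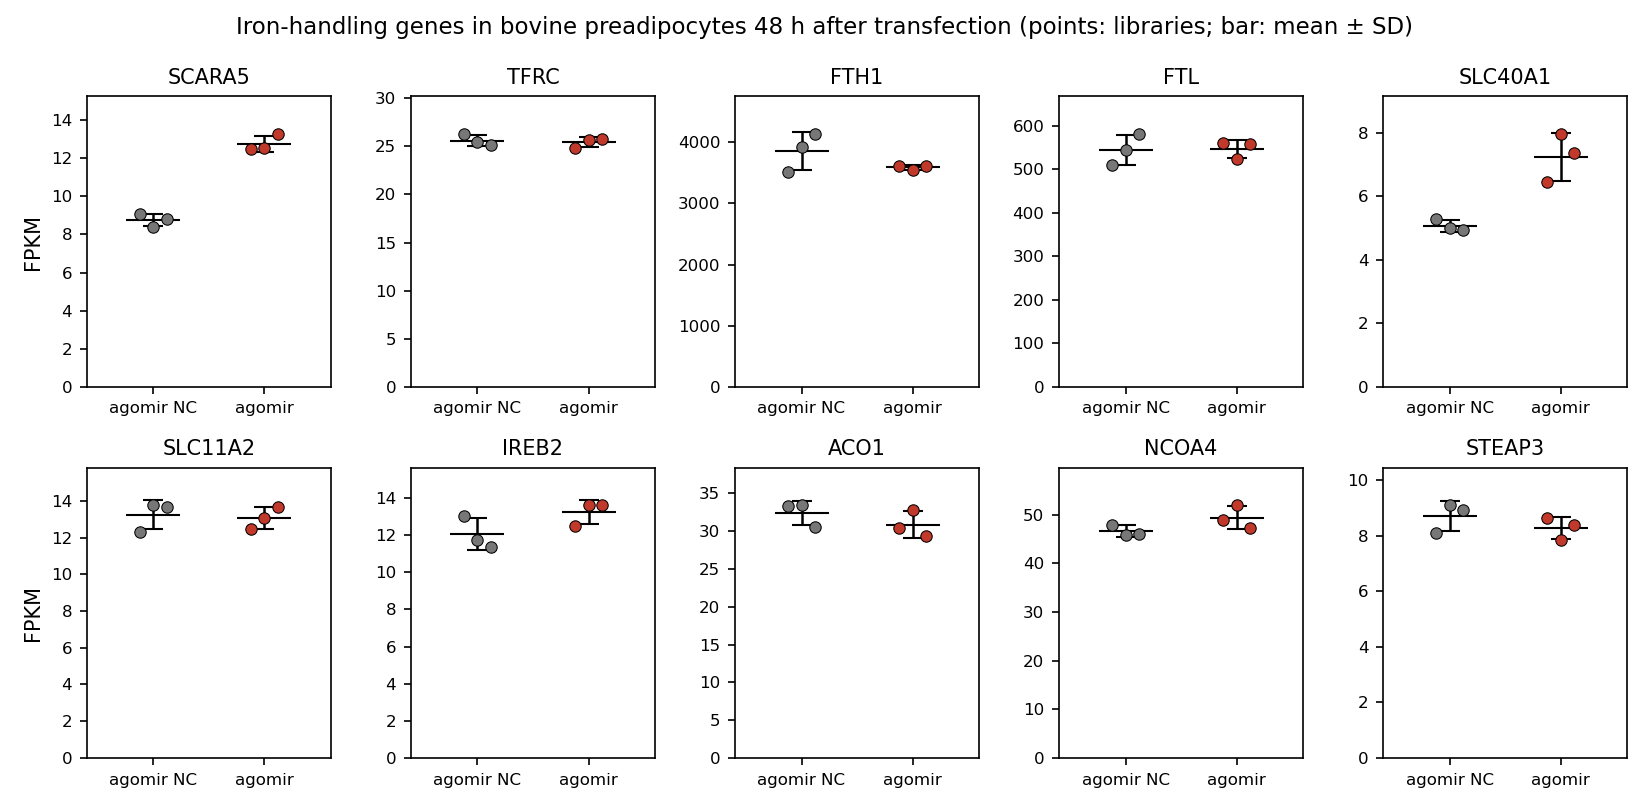
FPKM of the 10 iron genes in each library (points), with group mean and SD (bars), for agomir NC (grey) and bta-miR-484 agomir (red), each axis starting at 0. The groups are apart for SCARA5, which was chosen for this, and for SLC40A1, and they overlap for the other 8 genes. Groups did not overlap for 17.2% of all genes tested.

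TFRC encodes the transferrin receptor, the main entry for plasma iron. It measured 24.8, 25.7 and 25.7 FPKM with the agomir and 26.2, 25.4 and 25.1 FPKM with agomir NC. The libraries of both groups were interleaved, and the log2 fold change was -0.0095 with a 95% interval from -0.12 to 0.098 (limma adjusted p = 0.963). Its sign turned when either agomir replicate 1 or agomir NC replicate 1 was left out. STEAP3, the endosomal ferric reductase, averaged 8.28 ± 0.408 and 8.70 ± 0.536 FPKM with the agomir and with agomir NC, with an interval from -0.23 to 0.098 around a log2 fold change of -0.066 (limma adjusted p = 0.783). Leaving out 1 library moved this value between -0.12 (agomir NC replicate 1) and -0.029 (agomir replicate 2), and it was -0.035 without agomir NC replicate 2. SLC11A2, the endosomal ferrous iron transporter, averaged 13.1 ± 0.594 and 13.3 ± 0.798 FPKM (limma adjusted p = 0.951), and its log2 fold change of -0.018 had an interval from -0.17 to 0.13. Its sign turned without agomir replicate 1, agomir NC replicate 2 or agomir NC replicate 3.

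The wider list of uptake and reduction genes held 26 genes, of which 21 passed the filter and 20 were tested beside SCARA5. Of these, 2 were lower and 0 were higher at an unadjusted p of 0.05, set against 4.31% of all genes lower and 6.63% higher at that threshold. The balance over all genes depended on scaling, with 824 higher and 535 lower as deposited, 673 and 688 with median-ratio scaling, 696 and 629 with quantile normalization, and 642 and 647 with the gene-span trend removed. The 2 lower genes of the list both belonged to the STEAP family of metalloreductases. STEAP1, which lacks the part that binds the electron donor NADPH, measured 39.6, 45.9 and 40.0 FPKM with the agomir and 51.5, 47.9 and 56.0 FPKM with agomir NC, and the groups did not overlap. Its log2 fold change was -0.31 with a standard error of 0.072 (limma adjusted p = 0.257 by Benjamini-Hochberg). STEAP2 was at 20.6 ± 1.21 and 23.1 ± 0.939 FPKM, without overlap, with a log2 fold change of -0.16 (limma adjusted p = 0.381). Groups did not overlap for 3 of the 20 genes, beside 17.2% of all genes tested. Beside STEAP1 and STEAP2 this was EXOC6, which was higher with the agomir, at 0.740 ± 0.0618 against 0.505 ± 0.0555 FPKM. Its log2 fold change was 0.30 (limma adjusted p = 0.471). The most abundant genes of the list were 3 others. LRP1, a receptor that takes up heme bound to hemopexin among many other ligands, averaged 376 FPKM over the 6 libraries, the retromer protein SNX3 95.9 FPKM and the recycling GTPase RAB11A 71.2 FPKM, all with unadjusted p above 0.05. The median log2 fold change of the tested genes of the list was -0.025, beside 0.013 for all 12422 genes.

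Storage rested on very abundant transcripts. FTH1, the ferritin heavy chain with ferroxidase activity, measured 3616, 3541 and 3607 FPKM with the agomir and 3517, 3914 and 4129 FPKM with agomir NC. The lowest of the 6 values was a control library and so were both highest, so the groups overlapped, and the spread was wider in the controls (SD 310.3 FPKM) than with the agomir (SD 41.1 FPKM). The gene ranked 6 by mean level among all genes of the table. Its log2 fold change of -0.10 had a 95% interval from -0.23 to 0.03 (limma adjusted p = 0.569), and it was -0.053 under quantile normalization. Without agomir NC replicate 1, the lowest control, the log2 fold change was -0.16 with an unadjusted limma p under 0.05 and an adjusted p of 0.295. Without agomir NC replicate 3, the highest control, it was -0.048 with a limma adjusted p of 0.802.

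FTL, the ferritin light chain, measured 559, 523 and 558 FPKM with the agomir and 510, 544 and 580 FPKM with agomir NC. The control values enclosed those of the agomir group, and the log2 fold change of 0.0069 had an interval from -0.11 to 0.12 (limma adjusted p = 0.978). Median-ratio scaling turned its sign, as did leaving out agomir replicate 1, agomir replicate 3 or agomir NC replicate 1. Under quantile normalization the log2 fold change of FTL was 0.059. Both ferritin chains together made up 1.13%, 1.11% and 1.13% of the summed FPKM with the agomir and 1.09%, 1.22% and 1.24% with agomir NC. Ferritin genes have many processed copies in mammalian genomes, and how reads shared with such copies were assigned is not given in the sources used here. In the RefSeq annotation of the newer assembly ARS-UCD2.0, TULP2 overlaps FTL, and TULP2 averaged 0.905 and 0.928 FPKM in the agomir and control groups.

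The ratio of FTH1 to FTL was compared because heavy and light chains share one shell in varying proportion. It was 6.47, 6.76 and 6.47 with the agomir and 6.89, 7.20 and 7.12 with agomir NC. Every agomir library was below every control, with means of 6.57 ± 0.172 and 7.07 ± 0.158 and a log2 difference of -0.11. The two-sided exact permutation test gave p = 0.1, the smallest value that 3 against 3 libraries allow, and 0.2 after adjustment over the 2 ratios compared. The ratio of TFRC to FTH1, uptake against storage, was 0.00708 ± 0.000199 and 0.00668 ± 0.000711 (SD, n = 3 each), and the groups overlapped. Its log2 difference of 0.090 had an exact permutation p of 0.4 and an adjusted p of 0.4. Single controls moved this value, to 0.17 without agomir NC replicate 1 (exact p = 0.1, the smallest possible) and to 0.025 without agomir NC replicate 3 (exact p = 0.8).

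NCOA4, the receptor that leads ferritin to autophagic breakdown, measured 48.9, 51.9 and 47.2 FPKM with the agomir and 48.0, 45.8 and 46.1 FPKM with agomir NC. The ranges overlapped by 1 control library that lay above the lowest agomir library. Its log2 fold change was 0.081 with an interval from -0.030 to 0.19 (limma adjusted p = 0.596), and 0.044 without agomir replicate 2. Of the 10 genes on the list of ferritin storage and turnover 9 were tested, and 0 were higher and 0 lower in limma at an unadjusted p of 0.05, beside 6.63% and 4.31% of all genes. The iron chaperone PCBP2 averaged 177 FPKM, and mitochondrial ferritin, FTMT, was listed at 0 in all 6 libraries.

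SLC40A1 encodes ferroportin, the exporter of ferrous iron. It measured 6.44, 7.95 and 7.35 FPKM with the agomir and 5.28, 5.01 and 4.93 FPKM with agomir NC. All agomir libraries exceeded all controls, and the agomir libraries were spread more widely, averaging 7.25 ± 0.763 FPKM against 5.07 ± 0.180 FPKM in the controls (SD, n = 3 each). The ratio was 1.43. SLC40A1 was the 1 member of the 9 beside SCARA5 whose groups did not overlap, set against 17.2% of all genes tested. The log2 fold change was 0.47 with a standard error of 0.088 and a 95% interval from 0.27 to 0.67, and its unadjusted limma p was under 0.05.

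After Benjamini-Hochberg adjustment over the 12422 genes, the limma p of SLC40A1 was 0.171 and did not pass 0.05. At the adjusted threshold 1 gene of the whole table passed (0.00805%), the trafficking gene TRAPPC4, named here after its values were seen and in none of the iron lists. The 15 alternative settings gave SLC40A1 log2 fold changes between 0.41 and 0.55, an unadjusted p under 0.05 in each of them and adjusted p from 0.138 to 0.482. It was the 1 member of the 9 beside SCARA5 with an unadjusted p under 0.05, a count to be read against 10.9% of all genes tested. Without agomir NC replicate 1 the count was 3 of 9, with FTH1 and IREB2 added.

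Of 10 genes on the list of iron and heme export 5 passed the filter, and 1 was higher (SLC40A1) and 0 lower at an unadjusted p of 0.05, beside 6.63% and 4.31% of all genes. The heme exporter FLVCR1 averaged 8.27 FPKM over the 6 libraries and ABCG2, an efflux pump that also carries heme, averaged 5.15 FPKM, with log2 fold changes of 0.015 and 0.031. Hepcidin, HAMP, the hormone that removes ferroportin from the membrane, was listed at 0 in all libraries. Among the ferroxidases that work with ferroportin, CP stayed at or under 0.146 FPKM, HEPH at or under 0.342 FPKM, and HEPHL1 was listed at 0.

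Of the sensors, IREB2 encodes iron regulatory protein 2, which is degraded when iron is plentiful. It measured 12.5, 13.6 and 13.6 FPKM with the agomir and 13.1, 11.8 and 11.4 FPKM with agomir NC. The other control libraries lay under all agomir libraries, while agomir NC replicate 1 lay within their range. The log2 fold change was 0.13 with an interval from -0.03 to 0.29 (limma adjusted p = 0.539). Without agomir NC replicate 1 it was 0.19 with an unadjusted limma p under 0.05 and an adjusted p of 0.383, and without agomir NC replicate 3 it was 0.091 with an adjusted p of 0.762.

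ACO1, the cytosolic aconitase that becomes iron regulatory protein 1 when it loses its iron-sulfur cluster, measured 30.4, 32.8 and 29.3 FPKM with the agomir and 33.3, 33.4 and 30.5 FPKM with agomir NC. The groups overlapped, and the log2 fold change of -0.070 had an interval from -0.20 to 0.06 (limma adjusted p = 0.708). It was -0.11 without agomir replicate 2 or agomir NC replicate 3, and -0.035 without agomir replicate 3. In the list of iron sensing all 11 genes were tested, and 0 were higher and 1 was lower at an unadjusted p of 0.05, beside 6.63% and 4.31% of all genes. That gene was EPAS1, the oxygen-sensing factor HIF-2 alpha, whose mRNA carries an iron-responsive element. EPAS1 measured 379, 374 and 384 FPKM with the agomir and 419, 462 and 416 FPKM with agomir NC, and its log2 fold change was -0.19 (limma adjusted p = 0.265). It was the 1 gene of the 11 whose groups did not overlap, beside 17.2% of all genes tested. HIF1A, its paralog, averaged 165 FPKM with a log2 fold change of 0.042, and the ubiquitin ligase subunit SKP1 averaged 68.8 FPKM.

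Among the 10 genes the order of levels per length was FTH1, FTL, NCOA4, ACO1 and TFRC in both groups, and the ranges of these neighbours did not overlap within a group. The order after TFRC differed between the groups. With agomir NC it went on with SLC11A2 and IREB2, which overlapped, then SCARA5 and STEAP3, which overlapped, and SLC40A1. With the agomir the ranges of IREB2, SLC11A2 and SCARA5 overlapped between 12.5 and 13.2 FPKM, and those of STEAP3 and SLC40A1 overlapped at a lower level.

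In the BMP pathway, which sets hepcidin in the liver, 12 of 16 genes were tested, and 2 were higher and 0 lower at an unadjusted p of 0.05. This was 16.7% of the list, beside 10.9% of all genes in either direction and 6.63% higher. The receptor BMPR2 measured 19.4, 20.5 and 20.001 FPKM with the agomir and 18.4, 18.4 and 17.3 FPKM with agomir NC, a log2 fold change of 0.14 (limma adjusted p = 0.399). The inhibitory SMAD7 was at 7.08 ± 0.539 and 6.08 ± 0.257 FPKM, a log2 fold change of 0.20 (limma adjusted p = 0.403). The groups did not overlap for either gene, the 2 of the 12 tested for which this held, beside 17.2% of all genes. The BMP target ID1 was the most abundant of the list at 47.8 FPKM, with an interval from -0.03 to 0.38, and the receptor ACVR1 averaged 19.8 FPKM. Hemojuvelin, HJV, the coreceptor of this pathway in liver, was listed at 0 in all libraries.

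In heme synthesis and breakdown 21 of 23 genes were tested, of which 1 was higher and 2 were lower at an unadjusted p of 0.05. The share of 14.3% was near the 10.9% of all genes. UROD, an enzyme of heme synthesis, averaged 18.8 ± 0.815 FPKM against 17.0 ± 0.534 FPKM in the controls, a log2 fold change of 0.14 (limma adjusted p = 0.406). PPOX, the last step but one of that synthesis, had a log2 fold change of -0.13 (limma adjusted p = 0.414), and the heme-binding HEBP1 one of -0.15 (limma adjusted p = 0.427). Without agomir NC replicate 3 the log2 fold change of HEBP1 was -0.091. The most abundant gene was HMOX1, heme oxygenase 1, which releases iron from heme. Agomir libraries averaged 143 ± 2.91 FPKM and controls 149 ± 4.71 FPKM, groups that overlapped, with an interval from -0.15 to 0.03 on the log2 scale. TMEM14C and BLVRB followed at 55.3 and 54.9 FPKM.

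Assembly of iron-sulfur clusters showed 0 genes at an unadjusted limma p of 0.05 in the mitochondrion (24 of 24 tested) and 0 in the cytosol (10 of 11 tested), beside 10.9% of all genes. Their median log2 fold changes were 0.070 and -0.058, beside 0.013 for all genes tested. HSPA9 (199.9 FPKM), the scaffold ISCU (100.1 FPKM) and NFU1 (44.7 FPKM) were the most abundant mitochondrial genes. In the cytosolic list these were GLRX3 at 62.0 FPKM and the genes named FAM96A and FAM96B in the table, now CIAO2A and CIAO2B, at 34.3 and 18.0 FPKM.

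Over the 8 iron lists together, 129 genes gave 110 tested beside SCARA5, of which 4 were higher and 5 lower at an unadjusted limma p of 0.05 and 0 passed the adjusted threshold. That is 8.18% of the genes tested, beside 10.9% of all genes. Groups did not overlap for 15 of the 110, beside 17.2% of all genes. The median log2 fold change was 0.0087, against 0.013 over all genes. The count of 9 moved to 4 without agomir replicate 2 (3.67%, beside 8.09% of all genes) and to 16 without agomir NC replicate 1 (14.7%, beside 11.5%). The list share was also above that of all genes without agomir NC replicate 3 (10.0%, beside 9.01%) and without a filter (9.09%, beside 8.69%). SLC40A1, STEAP1 and EPAS1 had an unadjusted limma p under 0.05 in all 15 alternative settings, SMAD7 in 13, STEAP2 in 12, HEBP1 in 11, BMPR2 and UROD in 10 each and PPOX in 8. Without agomir replicate 2 the unadjusted calls of SMAD7, STEAP2, HEBP1, BMPR2, UROD and PPOX were all lost. Calls also ended without agomir replicate 1 (STEAP2, HEBP1), agomir replicate 3 (BMPR2, UROD, PPOX), agomir NC replicate 1 or 2 (UROD, PPOX), or agomir NC replicate 3 (STEAP2, BMPR2, SMAD7, HEBP1). With all libraries they ended under quantile normalization (BMPR2, UROD), without a variance trend (PPOX, HEBP1), with the replicate block (PPOX) and with the gene-span trend removed (BMPR2, PPOX).

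**Figure D2:**
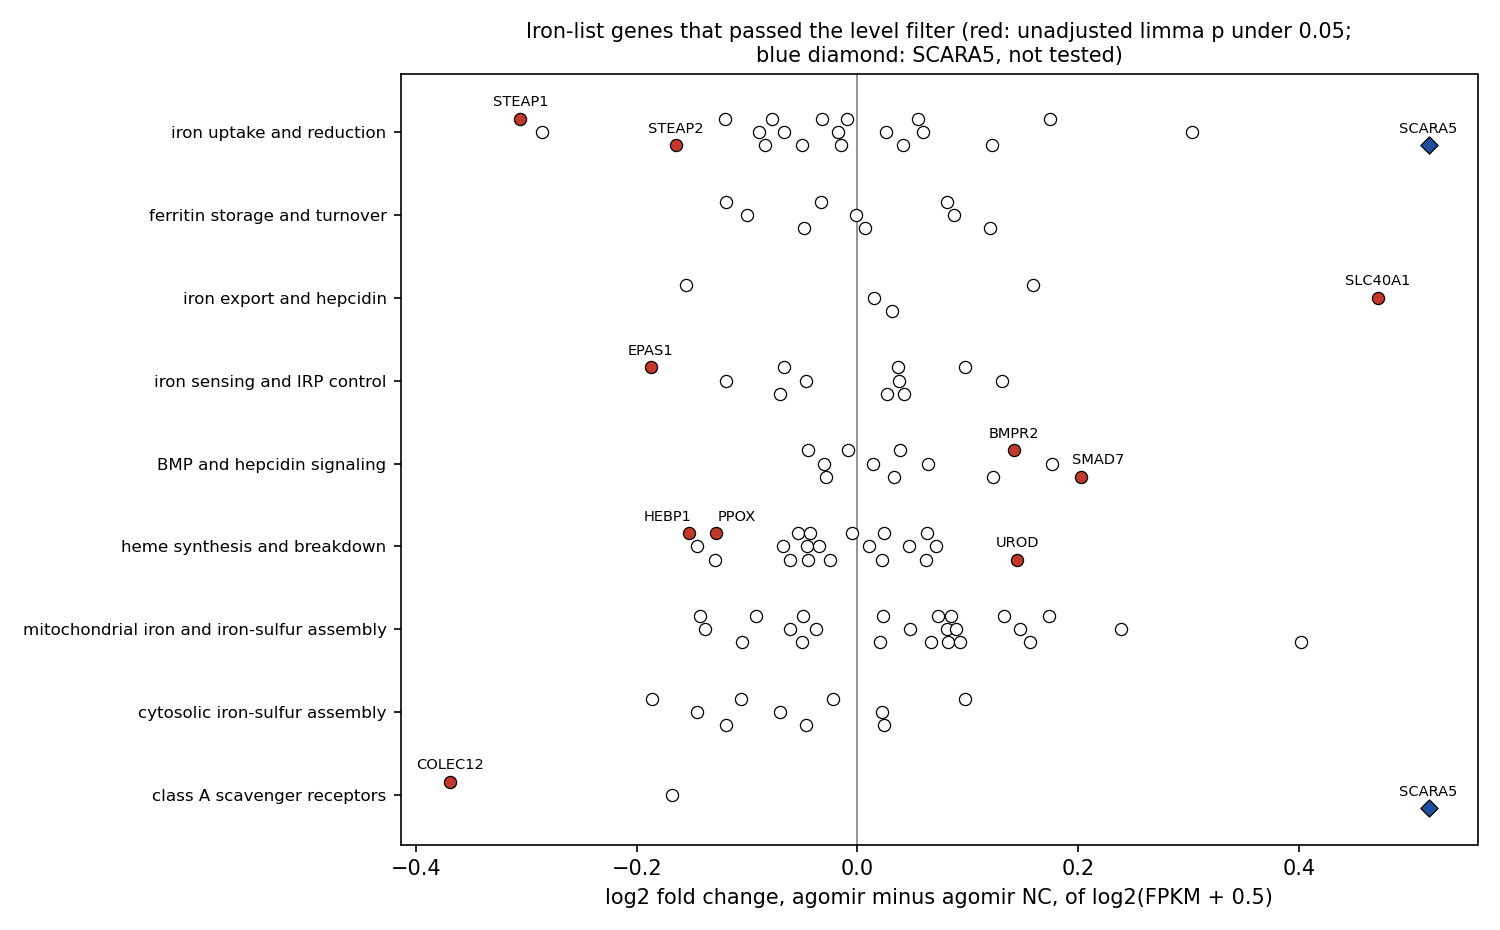
Log2 fold change (agomir minus agomir NC) of each gene that passed the level filter, by list, with genes at an unadjusted limma p under 0.05 in red and SCARA5 as a blue diamond without a test. Most genes lie within 0.2 of 0, and SCARA5 at 0.52 and SLC40A1 at 0.47 lie farthest to the right.

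Genes whose levels ran most like those of SCARA5 over the 6 libraries were MFAP1 (Pearson r = 0.996), TRIOBP (0.992), VCPIP1 (0.991), RAPGEF2 (0.986) and FAM13A (0.986), on the log2(FPKM + 0.5) scale. These coefficients are descriptions of 6 values in 2 groups, and genes whose groups are well apart score high. After the group means were removed, r was 0.87, 0.61, 0.89, 0.46 and 0.10 for the 5 genes in the same order. Of 11251 genes with a symbol, 262 had r of at least 0.9. The log2 fold changes of the 5 genes were 0.10, 0.29, 0.065, 0.23 and 0.16 respectively. These genes were picked by correlation alone and SCARA5 for its difference, so the sizes are not compared. Among the iron genes SLC40A1 had r = 0.94, and 0.25 after the group means were removed.

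Neighbouring genes were read by name from the RefSeq annotation of ARS-UCD2.0. ELP3 and PBK, expressed genes on either side of SCARA5, had log2 fold changes of 0.053 and -0.044, and ESCO2, next to PBK, had 0.009. ASNSD1, next to SLC40A1, had a log2 fold change of -0.060. The higher values of SCARA5 and SLC40A1 thus did not extend to these neighbours. For SLC40A1 this rests on ASNSD1 alone. ANKAR, on the same side, averaged 0.0323 FPKM with the agomir and 0.0664 FPKM with agomir NC and was not tested. The nearest annotated entries on the other side of SLC40A1 had no values here. The pseudogene LOC112447908, which overlaps SCARA5 in that annotation, had none either.

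Fold changes over the whole table moved with the length of the gene in the genome. The median was -0.025 in the shortest of 10 classes of length and 0.046 in the longest, over 11255 genes. SCARA5 was in class 9 and SLC40A1 in class 5, while both ferritin genes were in class 1, the shortest. With this trend removed, an alternative chosen after the data were seen, the log2 fold change of SCARA5 was 0.47 and that of SLC40A1 0.46 (limma adjusted p = 0.138). The source of the trend was not tested.

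Markers of other cells were followed because macrophages and red cell precursors handle much iron. Of 14 macrophage and leukocyte markers 3 passed the filter, and TYROBP, C1QA, C1QB, MSR1 and MARCO were listed at 0. The summed level of that list was 8.94, 9.45 and 7.91 FPKM with the agomir and 9.49, 9.21 and 9.08 FPKM with agomir NC, most of it from CD14, and CD68 averaged 0.906 FPKM. The marker FCER1G was lower with the agomir at 0.794 ± 0.178 against 1.23 ± 0.224 FPKM (limma adjusted p = 0.389). Of 11 erythroid markers 1 passed, EPOR at 5.71 FPKM, and HBB, HBM, GYPB and SLC4A1 were listed at 0. The erythroid list summed to 5.54, 6.05 and 5.94 FPKM with the agomir and 5.89, 6.72 and 7.37 FPKM with agomir NC. The erythroid genes AHSP and KLF1 averaged 0.458 and 0.0446 FPKM.

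Of 8 endothelial markers 2 passed, and EMCN and CLDN5 were listed at 0. That list summed to 4.83, 3.93 and 4.53 FPKM with the agomir and 4.55, 4.72 and 4.15 FPKM with agomir NC, with VWF (3.39 FPKM) the most abundant gene. Of 6 epithelial markers 0 passed, KRT5, KRT14 and KRT18 were listed at 0, and the sum, led by EPCAM, was 0.145, 0.169 and 0.221 FPKM with the agomir and 0.311, 0.239 and 0.379 FPKM with agomir NC. Of 8 muscle markers found 3 passed, MYOD1 and MYOG were listed at 0, and the list summed to 500.2, 503 and 490.2 FPKM with the agomir and 531, 479 and 517 FPKM with agomir NC. The muscle sum came mainly from TAGLN (281 FPKM) and ACTA2 (207 FPKM), which mesenchymal cells also express.

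The preadipocyte and mesenchymal list summed to 28748, 29897 and 28838 FPKM with the agomir and 28742, 30054 and 29470 FPKM with agomir NC, with COL3A1 the most abundant gene. Of its 17 genes 14 passed the filter, and 1 was higher and 3 were lower at an unadjusted limma p of 0.05. These were 28.6% of the genes tested in the list, beside 10.9% of all genes. PPARG, the master regulator of fat cell formation, was higher at 3.86 ± 0.157 against 3.23 ± 0.237 FPKM, a log2 fold change of 0.23 (limma adjusted p = 0.407). The surface enzyme NT5E was lower at 73.2 ± 3.73 against 87.2 ± 3.56 FPKM (log2 fold change -0.25, limma adjusted p = 0.209). The matrix proteoglycan DCN had a log2 fold change of -0.12 and LY6E, at a mean of 0.91 FPKM, one of -0.39. In the mature adipocyte list 0 of the 6 tested genes were higher and 1 was lower, beside 6.63% and 4.31% of all genes. It was FABP4 with a log2 fold change of -0.49 (limma adjusted p = 0.363), and its groups overlapped. Of the 6 tested genes of that list, 3 had a positive log2 fold change. Leaving out 1 library ended the unadjusted calls of PPARG and FCER1G (agomir replicate 1 or 3, or agomir NC replicate 3), DCN (agomir replicate 1 or 3) and FABP4 (agomir replicate 3 or agomir NC replicate 1), and quantile normalization brought DCN to 0. The call of DCN also ended without a filter and without a variance trend, and that of PPARG with the gene-span trend removed. The part of these markers in the SCARA5 and SLC40A1 values was not tested.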

How the data were processed

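RNA sequencing of 6 libraries was deposited by the authors as FPKM per gene, and the submitters' processing notes name fastp, HISAT2, StringTie and the build ARS-UCD1.2 without versions or roles. The strand setting of the counting is not given in the sources used here. Groups were taken from the sample labels. Whole reads were looked for in 3191 low genes and not recovered, since at most 10 shared a bin of 0.002 on the log2 scale between libraries, so depth is unknown. In R 4.3.3, limma 3.58.1 with a variance trend was fitted to log2(FPKM + 0.5) for each gene averaging 0.5 FPKM or more, two-sided, with Benjamini-Hochberg adjustment over 12422 genes. The procedure was tested on simulated data. Ratios were compared by exact permutation over 20 regroupings. Of 223 list symbols 221 were matched, 3 by a RefSeq synonym, and BOLA2 and PAX7 were not. The values of 1 marker gene are not reported here. The members and lists were chosen with earlier results of these data known. Named genes were all members, genes of each list with an unadjusted p under 0.05, the up to 3 most abundant genes of each list, and the 5 likest SCARA5; other genes, such as those listed at 0, neighbours and markers, were named after their values were seen. Alternatives were pseudocounts of 0.1 and 1, no filter, a minimum mean of 1 FPKM, quantile normalization, median-ratio scaling, a constant prior variance, a replicate block, leaving out each library, and removal of a gene-span trend.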

Additional observations from a re-analysis of the deposited data

How the results depend on the processing

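Of 404 values that single genes took in the alternative settings, 394 had the main sign and the other 10 changed sign or became 0. None of these genes passed the adjusted threshold in the main setting. For the 19 of them called at an unadjusted limma p of 0.05, 43 of 284 values in alternative settings lost that call. DCN, at -0.12, was 0 under quantile normalization, and FTL was -0.0083 with median-ratio scaling. The other sign changes came from leaving out 1 library, with ranges of -0.039 to 0.053 for FTL, -0.023 to 0.0087 for TFRC and -0.067 to 0.013 for SLC11A2. SCARA5 lay between 0.47 (gene-span trend removed, chosen after the data were seen) and 0.54 (without agomir NC replicate 1). The 1 gene past the adjusted limma threshold became 0 without a filter, 0 without a variance trend and 0 with the replicate block, where 738 genes were higher and 522 lower at an unadjusted p of 0.05, and leaving out single libraries gave 0 to 2. Leaving out single libraries gave 1 to 3 members other than SCARA5 and 4 to 16 iron list genes at an unadjusted p of 0.05, the highest of both without agomir NC replicate 1, while the share of all genes went from 8.09% to 11.5%. With the replicate block SLC40A1 stayed at 0.47 (limma adjusted p = 0.256). Deviations of equal replicate numbers correlated at -0.051, 0.053 and 0.039 across genes, so the numbers showed no pairing. The causes of these changes were not tested. With FPKM alone, the counting error of low genes cannot be given, and 3 libraries a group limit the exact test to p = 0.1.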

Other observations

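Genes of ferroptosis, the iron-dependent cell death by lipid peroxidation, were read as a further list. Of 23 genes 21 were tested, and 1 was higher and 2 were lower with the agomir at an unadjusted limma p of 0.05. The share of 14.3% was near the 10.9% of all genes tested. GCLM, the modifier subunit of the first enzyme of glutathione synthesis, measured 16.7, 16.9 and 17.1 FPKM with the agomir and 15.1, 15.3 and 15.2 FPKM with agomir NC, a log2 fold change of 0.15 (limma adjusted p = 0.363). The groups were apart and the spread within each was small. PTGS2, which makes prostaglandins, was at 47.9 ± 0.990 and 54.5 ± 4.09 FPKM, also without overlap, a log2 fold change of -0.18 (limma adjusted p = 0.333). SAT1, a polyamine acetylase, had a log2 fold change of -0.23 (limma adjusted p = 0.350). The most abundant genes of the list were GPX4, which reduces lipid peroxides, at 272 FPKM with a log2 fold change of 0.0053, the chaperone HSPB1, between 139 and 156 FPKM, and HMOX1. Groups did not overlap for 6 of the 21 genes, beside 17.2% of all genes, and 0 passed the adjusted limma threshold. The unadjusted call of GCLM was lost without agomir replicate 3, and that of SAT1 without agomir replicate 2 or agomir NC replicate 3.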
